A study of Mus musculus with 9 samples.

Results

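The interferon-inducible IRG and GBP GTPases are described here in sorted Lgr5-GFP+ intestinal stem cells of the mouse small intestine. The members are 10 of the 57180 identifiers in the table of read counts, found by their symbols: the immunity-related GTPases Iigp1, Igtp, Irgm1, Irgm2, Ifi47 and Tgtp2, and the guanylate-binding proteins Gbp2, Gbp3, Gbp6 and Gbp7. All 10 were among the 13405 genes that passed the filter on low counts. The members were chosen by their levels in these same libraries, so their levels and fold changes are given as a description. Where members past the threshold of the fit over all genes are counted, the count stands beside the share of all genes and supports nothing.

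Libraries came from 3 groups of 3. The KO day 4 and KO day 3 groups (KANSL1-KO) were Lgr5-EGFP-CreERT2; Kansl1 f/f mice that received daily tamoxifen for 4 days or for 3 days. The control group received corn oil and is labelled KANSL1-WT; the design text does not say outright whether it carried the same alleles. The Cre recombinase is driven from the Lgr5 locus, which is active in stem cells, and needs tamoxifen to act. Loss of KANSL1 and exposure to tamoxifen go together, and their parts cannot be told apart. KANSL1 holds together the NSL complex, which acetylates histones through the enzyme KAT8. The labels do not give the age of the mice, or tell if replicates were different animals, so that p-values measure only the spread between these libraries, which may be technical.

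IRG and GBP proteins are large GTPases of cell-autonomous immunity. Interferon gamma, bound to its receptor, activates the kinases JAK1 and JAK2 and so acts on GAS elements in target promoters; type I and type III interferons act through a complex with IRF9 on ISRE elements, which IRF1 can also bind. In mouse cells the regulatory IRGs (Irgm1, Irgm2 and Igtp, also called Irgm3) sit on the cell's own membranes and hold back the effector IRGs (Iigp1, Ifi47 and the Tgtp pair), which, with the GBPs, coat and break the vacuoles of intracellular parasites and bacteria. In the intestine these genes are known as markers of an interferon response of the epithelium.

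The bases before the transcription start show what the members share beyond their place in the counts. Sequences are RefSeq's, on GRCm38.p6. A GAS match was taken as TTCNNNGAA and an ISRE match as GAAANNGAAA or its complement TTTCNNTTTC, with overlaps allowed, in the 250 bases before the start. Of 32851 mouse promoters, 7.02% held a GAS match, 2.98% an ISRE match and 0.332% both. Promoters were on hand for 8 of the 10 members (Igtp, Irgm1, Irgm2, Ifi47, Tgtp2, Gbp2, Gbp3 and Gbp7). Those of Igtp, Irgm2, Tgtp2 and Gbp7 held both motifs, those of Irgm1, Gbp2 and the first promoter of Gbp3 an ISRE only, and that of Ifi47 neither. Igtp, Irgm2, Tgtp2 and the copy of Tgtp2, Tgtp1, carried the motifs in the same arrangement, GAS then 2 bases then ISRE. Their windows are shown because they line up base for base; capitals mark the motifs, and each runs 5′ to 3′ on the strand of its gene.
Igtp, chr11:58199503-58199539, plus strand: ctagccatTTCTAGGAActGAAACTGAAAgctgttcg
Irgm2, chr11:58214894-58214930, plus strand: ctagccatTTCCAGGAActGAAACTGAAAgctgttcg
Tgtp2, chr11:49064265-49064301, minus strand: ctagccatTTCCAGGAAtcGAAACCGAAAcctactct
Tgtp1, chr11:48992306-48992342, minus strand: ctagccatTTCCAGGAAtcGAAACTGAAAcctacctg

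Over these 37 bases Igtp and Irgm2 were identical at 36, Tgtp2 and Tgtp1 at 33, and Irgm2 and Tgtp2 at 30. The position differed: the ISRE match began 34 bases before the start in Igtp, 64 in Irgm2, 70 in Tgtp2 and 77 in Tgtp1. The GBP promoters were built otherwise, with the ISRE letters on the opposite strand, as they were in Gm12250, a further IRG gene. Gbp7 held 2 GAS matches ahead of its ISRE, and Gbp3 held 2 ISRE matches that overlap.
Gbp7, chr3:142530222-142530300, plus strand: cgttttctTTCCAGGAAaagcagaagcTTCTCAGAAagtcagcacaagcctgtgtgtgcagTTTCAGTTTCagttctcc
Gbp3, chr3:142559991-142560022, plus strand: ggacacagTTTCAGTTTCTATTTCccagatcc

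A match of letters is a description of the sequence and not a sign that a factor was bound in these cells.

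**Figure D1:**
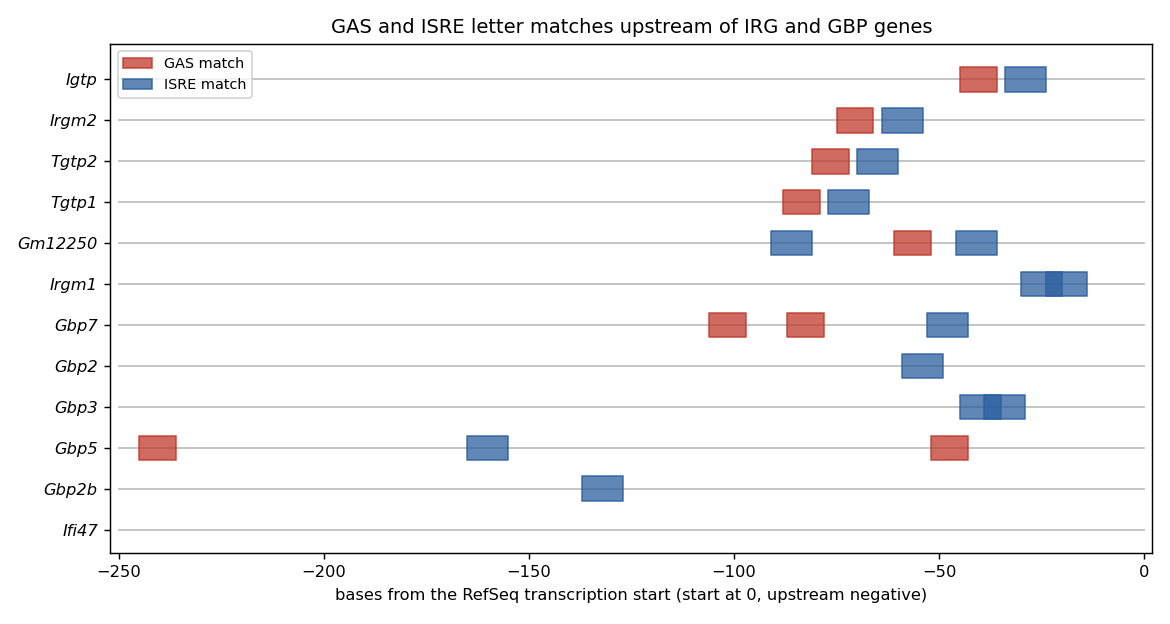
Matches to the GAS and ISRE letters (boxes) in the 250 bases before the RefSeq transcription start of 12 IRG and GBP genes, with distance from the start in bases on the x axis and genes in rows. Igtp, Irgm2, Tgtp2 and Tgtp1 show the same pair of boxes at different distances, and Ifi47 has none.

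The libraries differed in make-up between groups, which touches every value below. Totals were 11174583 to 16943055 counts at KO day 4, 8400458 to 21484679 at KO day 3 and 12164479 to 17913787 in controls. Mitochondrial transcripts took 66.86% to 72.12% of counts at KO day 4, 18.96% to 32.45% at KO day 3 and 16.43% to 25.84% in controls, leaving as few as 3115374 counts of nuclear genes in a KO day 4 library. Both KO groups held a library that stood apart: across genes, in log2 CPM, the correlation of KO day 4 replicate 3 with the rest of KO day 4 was 0.857 and 0.863, that of KO day 3 replicate 1 with the rest of KO day 3 was 0.914 and 0.910, and controls correlated at 0.969 to 0.973. Kansl1 itself was at 2.93, 5.08 and 8.95 CPM at KO day 4, 2.81, 2.99 and 2.55 at KO day 3 and 4.46, 11.4 and 9.82 in controls. The edgeR adjusted p for Kansl1 was 0.12 at day 3 and 0.34 at day 4; reads from outside the deleted part are counted too, so it checks the labels only in part. Stem cell markers (Lgr5, Olfm4 and 8 others) summed to 2756 to 7566 CPM of nuclear counts at KO day 4, 12683 to 18307 at KO day 3 and 18800 to 22732 in controls, and epithelial markers to 6829 to 7127, 6762 to 7579 and 7844 to 8216. That sum holds changes in both directions: at KO day 4 against control Epcam (log2 fold change -1.04, edgeR adjusted p = 0.0016), Cdh1 (-0.64, edgeR adjusted p = 0.026) and Cdx2 (-0.58, edgeR adjusted p = 0.038) were called lower, and the keratins Krt18 (1.74, edgeR adjusted p = 0.00027) and Krt8 (0.70, edgeR adjusted p = 0.0091) higher. The calls of Cdh1 and Cdx2 were lost without any 1 of the controls, that of Krt8 without control replicate 2, and with library size alone both keratins turn negative. In bulk RNA, fewer cells of a type and less RNA per cell cannot be told apart.

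All 6 IRGs were higher at KO day 3 than in controls in every library. At KO day 4 their libraries overlapped the controls, apart from Ifi47, which lay below them. The GBPs were low throughout, and Gbp2, Gbp6 and Gbp7 lay above the controls at both KO times, Gbp7 by a narrow margin at KO day 3. Both comparisons with the control share the same 3 control libraries. Levels below are CPM, which scale counts to a common library size corrected by TMM (edgeR's factors for composition). Fold changes are log2 values of the edgeR fit with a standard error (SE), and means are given with their SD over 3 libraries. The SE was derived from the test, as the absolute log2 fold change over the square root of its F statistic.

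**Figure D2:**
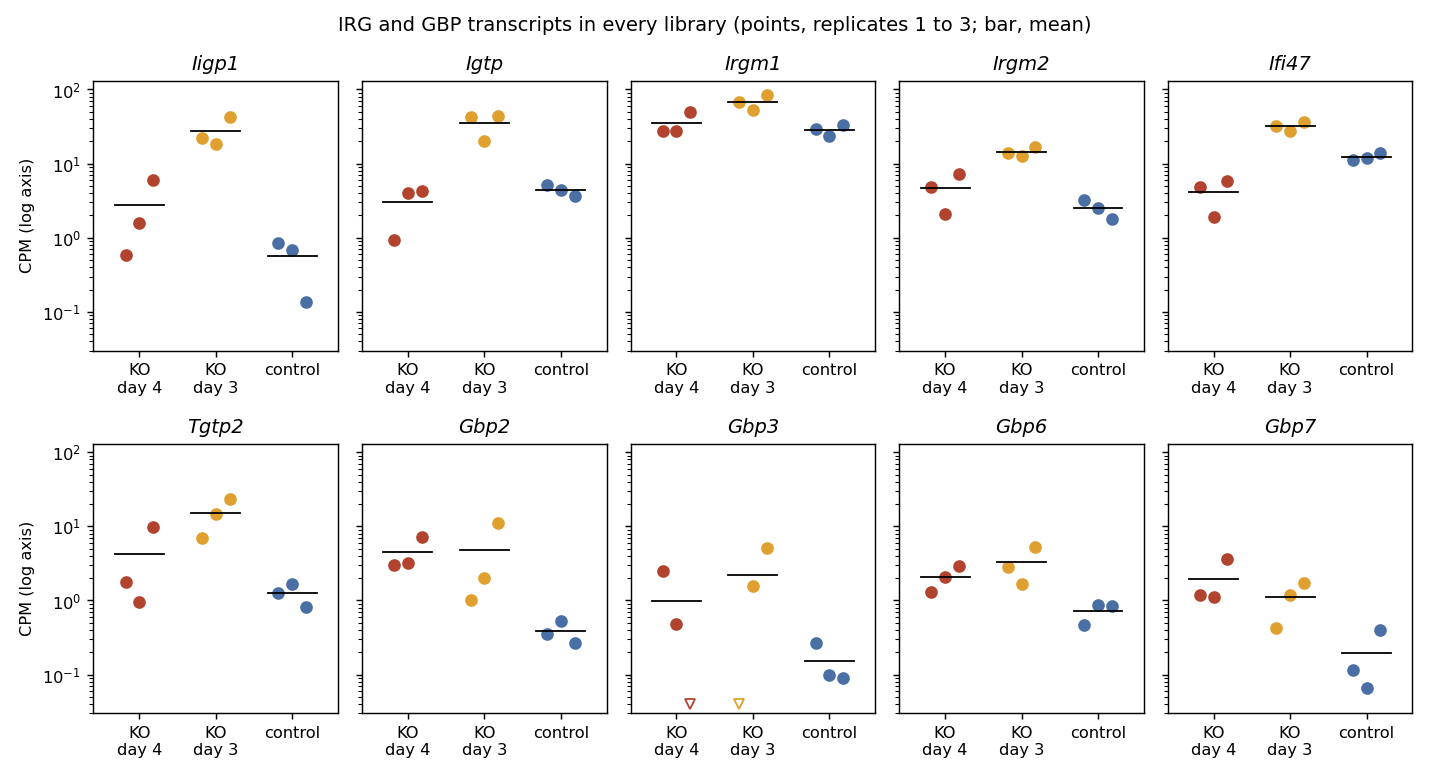
CPM on a log axis for each of the 10 members in every library (points, replicates 1 to 3 from left to right within a group) with the group mean (bar); open triangles at the bottom mark libraries with 0 counts. The KO day 3 points of the IRGs stand above those of both other groups, apart from Tgtp2 at KO day 4, and the GBP points of both KO times stand mostly above the controls.

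Irgm1, a regulatory IRG known from Golgi and lysosome membranes (ENSMUSG00000046879, chromosome 11, 48861968 to 48871683, minus strand), had the smallest fold change of the IRGs at KO day 3, within an SE of that of Ifi47. It stood at 27.5, 27.3 and 49.9 CPM at KO day 4, at 68, 53.6 and 84.5 at KO day 3 and at 29, 23.9 and 32.8 in controls. Each KO day 3 library lay above all libraries of the other groups, and the KO day 4 libraries overlapped the controls. The log2 fold change was 1.27 (SE 0.26) for KO day 3 against control, 0.28 (SE 0.26) for KO day 4 against control (-0.06 without KO day 4 replicate 3) and -0.99 (SE 0.26) for KO day 4 against KO day 3.

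Igtp, the regulator also called Irgm3 (ENSMUSG00000078853, chromosome 11, 58199556 to 58207591, plus strand), had 0.937, 3.97 and 4.25 CPM at KO day 4, 42, 20.3 and 43.3 at KO day 3 and 5.23, 4.39 and 3.68 in controls. The lowest KO day 3 library was above the highest of any other group. On average Igtp was at 3.05 ± 1.84 CPM at KO day 4, 35.2 ± 12.9 at KO day 3 and 4.43 ± 0.779 in controls (SD, n = 3 each), a log2 fold change of 2.98 (SE 0.44) for KO day 3 against control and of -3.59 (SE 0.49) for KO day 4 against KO day 3. Against control it was -0.61 (SE 0.48) at KO day 4, and the libraries overlapped.

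Irgm2, the third regulator (ENSMUSG00000069874, chromosome 11, 58199618 to 58222782, plus strand), was at 4.8, 2.07 and 7.16 CPM at KO day 4, at 13.8, 12.5 and 16.6 at KO day 3 and at 3.26, 2.54 and 1.79 in controls. The 3 KO day 3 values lay close together and above all others. Its log2 fold change was 2.49 (SE 0.41) for KO day 3 against control, 0.86 (SE 0.42) for KO day 4 against control and -1.64 (SE 0.41) for KO day 4 against KO day 3. In GENCODE M21 a transcript of Irgm2 begins inside the span of Igtp on the same strand, so reads there could be counted for either gene or for neither.

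Iigp1, an effector also called Irga6 (ENSMUSG00000054072, chromosome 18, 60376027 to 60392634, plus strand), had the widest change of the 10. It was at 0.586, 1.59 and 6.04 CPM at KO day 4, at 22.2, 18.3 and 42.4 at KO day 3 and at 0.853, 0.693 and 0.135 in controls, from 22, 21 and 3 control counts. The KO day 3 libraries lay above all others, and at KO day 4 only replicates 2 and 3 were above the controls. Fitted log2 fold changes were 5.58 (SE 0.76) for KO day 3 against control and -3.47 (SE 0.72) for KO day 4 against KO day 3. For KO day 4 against control it was 2.11 (SE 0.79), and 0.84 without KO day 4 replicate 3, the library that stood apart.

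Ifi47, the effector also called Irgd (ENSMUSG00000078920, chromosome 11, 49076587 to 49096974, plus strand), differed from the other members. It was at 4.8, 1.91 and 5.82 CPM at KO day 4, at 31.9, 27.4 and 37 at KO day 3 and at 11.2, 12 and 14.1 in controls. All KO day 3 libraries lay above the controls and all KO day 4 libraries below them. The log2 fold change was 1.37 (SE 0.30) for KO day 3 against control, -1.59 (SE 0.33) for KO day 4 against control and -2.96 (SE 0.34) for KO day 4 against KO day 3. It is also the member whose promoter held neither motif, which draws nothing about the factors that act on it.

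Tgtp2, an effector also called Irgb6 (ENSMUSG00000078921, chromosome 11, 49057194 to 49064206, minus strand), was at 1.76, 0.953 and 9.84 CPM at KO day 4, at 6.98, 14.6 and 23.2 at KO day 3 and at 1.28, 1.65 and 0.807 in controls. KO day 4 replicate 3 reached the range of KO day 3, and the other KO day 4 libraries stood near the controls. Tgtp2 had a log2 fold change of 3.57 (SE 0.73) for KO day 3 against control and -1.93 (SE 0.72) for KO day 4 against KO day 3. For KO day 4 against control it was 1.65 (SE 0.75), and 0.14 without KO day 4 replicate 3. Tgtp2 and Tgtp1 are near-identical copies whose reads the counting could have split, so their single values are uncertain.

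Per kilobase of exon, the order of the IRGs differed between groups. At KO day 3 Igtp led with a mean of 17.4 CPM per kb, followed by Ifi47 at 13 and Irgm1 at 11.8, whereas in controls Ifi47 (5.03) and Irgm1 (4.91) stood above Igtp (2.19). Irgm1 led at KO day 4 with 6.01 CPM per kb, and no other member passed 1.77 (Gbp2).

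The GBPs were rarer. Gbp2, which is anchored to membranes by a lipid and which mice need against Toxoplasma (ENSMUSG00000028270, chromosome 3, 142620602 to 142638008, plus strand), had 3.05, 3.18 and 7.16 CPM at KO day 4, 1.02, 2.04 and 11.2 at KO day 3 and 0.349, 0.528 and 0.269 in controls. Every KO library lay above every control, and the KO day 3 libraries spread over a far wider range than those of KO day 4. Its log2 fold change was 3.48 (SE 0.87) for KO day 4 against control, 3.61 (SE 0.85) for KO day 3 against control and -0.13 (SE 0.77) between the KO times. Without KO day 3 replicate 3 the value for KO day 3 against control was 1.99, and between the KO times it became 1.5.

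Gbp7 (ENSMUSG00000040253, chromosome 3, 142530342 to 142550149, plus strand), another GBP of the chromosome 3 cluster, whose deletion leaves mice open to Toxoplasma, was the only member whose mean was highest at KO day 4. It had 1.17, 1.11 and 3.58 CPM at KO day 4, 0.426, 1.17 and 1.74 at KO day 3 and 0.116, 0.066 and 0.404 in controls. Both KO groups lay above the controls and overlapped each other. At KO day 3 the margin was narrow, with 5 counts in replicate 1 (0.426 CPM) and 9 in control replicate 3 (0.404 CPM). By library size alone the order of these libraries is reversed. In log2 units the fold change was 3.28 (SE 0.95) for KO day 4 against control, 2.53 (SE 0.91) for KO day 3 against control and 0.75 (SE 0.85) between the KO times. The last value stayed positive without KO day 4 replicate 3. It was not positive with library size alone or without both libraries that stood apart.

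Gbp6 (ENSMUSG00000104713, chromosome 5, 105270702 to 105293698, minus strand) belongs to the second GBP cluster of the mouse genome. It had 1.29, 2.07 and 2.91 CPM at KO day 4, 2.81, 1.69 and 5.28 at KO day 3 and 0.465, 0.858 and 0.852 in controls. All KO libraries lay above the controls. The log2 fold change was 1.49 (SE 0.62) for KO day 4 against control and 2.16 (SE 0.60) for KO day 3 against control.

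Gbp3 (ENSMUSG00000028268, chromosome 3, 142560026 to 142573209, plus strand), also of the chromosome 3 cluster, had the largest SE of the 10, at 2.46, 0.477 and 0 CPM at KO day 4, 0, 1.56 and 5.17 at KO day 3 and 0.271, 0.099 and 0.0897 in controls. A library of each KO group had no read, and the groups overlapped. Its log2 fold change was 2.73 (SE 1.45) for KO day 4 against control and 3.84 (SE 1.42) for KO day 3 against control.

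**Figure D3:**
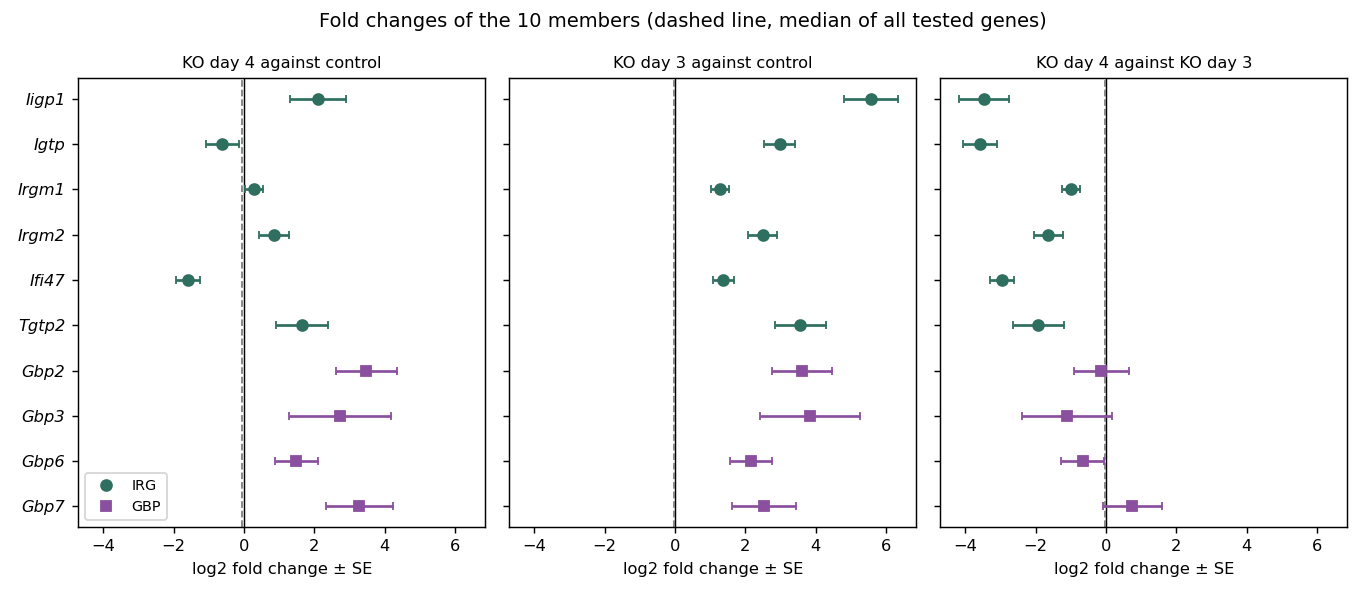
Log2 fold changes of the 10 members (rows; circles IRG, squares GBP) with their SE (bars) in 3 panels, namely KO day 4 and KO day 3 each against control, and KO day 4 against KO day 3; the dashed line is the median of all tested genes. At KO day 3 all members lie right of 0; between the KO times all but Gbp7 lie left of 0, some of the GBPs within their SE of it.

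Over the list, the median log2 fold change was 1.57 for KO day 4 against control, 2.76 for KO day 3 against control and -1.37 between the KO times, beside medians of -0.06, -0.02 and -0.02 over all tested genes. Without KO day 4 replicate 3, the library that stood apart, the members' median for KO day 4 against control was 0.65. With library size alone it was -0.38 for KO day 4 against control and -2.86 between the KO times, where the medians of all genes were -1.95 and -1.54. Against control at KO day 4, 2 members passed edgeR's quasi-likelihood test as higher (Gbp2 and Gbp7), where 11.1% of all genes did, and 1 as lower (Ifi47), where 11.5% did. The libraries did not overlap for 3 members above the control (Gbp2, Gbp6 and Gbp7), where this held for 20.7% of all genes, and for 1 below it, where it held for 26.4%. At KO day 3 against control, 3 members were called higher (Iigp1, Igtp and Irgm2) and none lower, where 0.142% and 0.298% of all genes were. All KO day 3 libraries lay above all controls for 9 members, Gbp3 being the exception, where this held for 12.1% of all genes. For Gbp7 this was by 0.426 CPM in KO day 3 replicate 1 over 0.404 in control replicate 3, from 5 and 9 counts. Between the KO times 5 members were called lower at KO day 4 (Iigp1, Igtp, Irgm1, Irgm2 and Ifi47), where 6.03% of all genes were, and these 5 were also the members whose libraries did not overlap, where 17.0% of all genes lay below. None was called higher, where 6.52% of all genes were. Since the members were chosen with these levels known, nothing is read from the counts.

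The 3 calls at KO day 3 rested on few libraries. By edgeR none of the 10 was called without any 1 of the controls or without KO day 3 replicate 3, though 8 or 9 of the 10 kept an unadjusted p under 0.05, and 8 were called without both libraries that stood apart or by DESeq2. That of Irgm2 was also lost without KO day 3 replicate 1 or replicate 2. At KO day 4 the call of Gbp2 was lost without control replicate 1 or replicate 3, and that of Gbp7 without control replicate 1 or replicate 2 and without KO day 4 replicate 3. With library size alone both of these calls were lost, and Igtp, Irgm1, Irgm2 and Ifi47 were called lower. Irgm2 was called higher at KO day 4 without KO day 4 replicate 2. Iigp1 was called higher there by DESeq2, without a filter and without KO day 4 replicate 1, and Gbp3 without both libraries that stood apart. Between the KO times Igtp and Ifi47 were called in all 16 alternatives, Iigp1 in all but the one without KO day 4 replicate 2, while Irgm1 and Irgm2 were not called without KO day 3 replicate 3 or without KO day 4 replicate 1 or replicate 2. Without KO day 3 replicate 1 the call of Irgm1 was lost, and without KO day 3 replicate 2 that of Irgm2. The direction against the control at KO day 4 depends on the scaling: with library size alone the median of all genes shifts to -1.95, and Irgm1, Irgm2, Tgtp2 and Gbp6 turn negative while Iigp1, Gbp2, Gbp3 and Gbp7 stay positive.

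KO day 3 replicate 3 was the highest of its group for 10 of 10 members, where it was for 32.7% of all genes, and KO day 4 replicate 3 was the highest of its group for 9 of 10, where it was for 35.2%. In controls the highest library differed from member to member, and KO day 3 replicates 1 and 2 had no common order. Their summed level was 73.6, 67.2 and 139 CPM of nuclear counts at KO day 4, 326, 277 and 512 at KO day 3 and 101, 101 and 123 in controls.

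The balance of the families differed between the groups. GBPs gave 16.5%, 15.3% and 14.1% of the members' counts at KO day 4, 2.25%, 4.21% and 8.63% at KO day 3 and 2.31%, 3.32% and 2.94% in controls. The 95% Wilson intervals, which cover counting error only, ran from 11.2% to 20.3% over the KO day 4 libraries and from 1.63% to 4.39% over the controls. All KO day 4 libraries lay above all others, and KO day 3 replicate 3 stood above the other libraries of its group. In CPM of nuclear counts the IRGs summed to 61.5, 56.9 and 119 at KO day 4, 319, 265 and 468 at KO day 3 and 98.6, 97.8 and 119 in controls, and the GBPs to 12.1, 10.3 and 19.6, to 7.34, 11.7 and 44.2 and to 2.33, 3.36 and 3.6.

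Of 14 further genes of the families, 3 passed the filter. Tgtp1 (chromosome 11, 48985327 to 48994172) was at 1.29, 0.159 and 4.47 CPM at KO day 4, at 9.63, 5.46 and 19.1 at KO day 3 and at 0.349, 0.066 and 0.404 in controls. Its KO day 3 libraries lay above all others, with a log2 fold change against control of 5.39 (SE 0.92, edgeR adjusted p = 0.036). Between the KO times it was -2.63 (SE 0.84, edgeR adjusted p = 0.061). The call of Tgtp1 at KO day 3 was lost without any 1 of the controls and without KO day 3 replicate 1 or replicate 3. Gm12250, which RefSeq also names Irgb10 (chromosome 11, 58187739 to 58189012, a processed pseudogene in GENCODE M21), was at 0.117, 0.477 and 1.12 CPM at KO day 4, at 9.8, 6.06 and 10.3 at KO day 3 and at 1.47, 1.91 and 1.39 in controls. As with Ifi47, its KO day 3 libraries lay above the controls and its KO day 4 libraries below them. The fall between the KO times was -4.10 in log2 units, with an SE of 0.62 (edgeR adjusted p = 0.0043) and passed the test in all 16 alternatives. Against control the log2 fold change of Gm12250 was -1.65 at KO day 4 and 2.45 at KO day 3 (edgeR adjusted p = 0.081 and 0.065). Irgq, a distant IRG that lacks GTP binding, was at 4.5 to 11.9 CPM in all libraries and passed no test (edgeR adjusted p of 0.69 at KO day 4 and 0.41 at KO day 3, each against control, and 0.13 between the KO times).

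The others were too rare to test. Gbp4 had 8, 5 and 7 counts at KO day 4, 0, 2 and 22 at KO day 3 and 0 in every control. Gbp9 had 0, 8 and 35 counts at KO day 4, 0, 1 and 18 at KO day 3 and 3, 0 and 5 in controls; Gbp4, Gbp8 and Gbp9 overlap in GENCODE M21 and their reads may be mixed. Gbp10, a similar copy of Gbp6, had counts in KO day 3 replicates 2 and 3 alone, with 2 and 11. Gbp5 had 0, 2 and 0 counts at KO day 4, 0, 0 and 9 at KO day 3 and none in controls. Gm4951 had 0, 0 and 11 counts at KO day 4, 0, 2 and 1 at KO day 3 and none in controls, and F830016B08Rik had counts (7 and 5) in KO day 3 replicates 2 and 3 only. Gm5431 and Gbp8 had at most 13 counts in a library and had counts in controls too. Gbp2b and Gbp11 had 1 count each over all libraries and Irgc1 had 0. A count of 0 allows up to 3 counts, which is 0.351 to 0.671 CPM in KO day 4 libraries, 0.106 to 0.256 at KO day 3 and 0.099 to 0.135 in controls.

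Upstream of the GTPases, no message of the 10 interferon ligands listed was detected at this depth. Ifng, Ifnb1, Ifnl2, Ifnl3 and the other 6 ligands of the list had 0 counts in all 9 libraries. Messages for receptors and signal carriers were present, with 18 of 18 genes tested. At KO day 4 against control 1 was called higher, where 11.1% of all genes were, and none lower, where 11.5% were. It was Jak1, the kinase of all interferon receptors (0.69 ± 0.22, SE, in log2 units, edgeR adjusted p = 0.047). At KO day 3 none was called higher and 1 lower, where 0.142% and 0.298% of all genes were. This was Tyk2, the kinase of the type I receptor (-2.07, SE 0.36, edgeR adjusted p = 0.036). Irf1, an interferon-inducible factor that binds ISRE elements, was at 19.8, 7.79 and 32.2 CPM at KO day 4, at 58.9, 25.5 and 45.5 at KO day 3 and at 14.3 in each control (edgeR adjusted p = 0.10 for KO day 3 against control). Jak1 was called higher between the KO times too (0.77, SE 0.22, edgeR adjusted p = 0.046), and with library size alone both of its fold changes turn negative. The calls of Jak1 and Tyk2 were each lost without any 1 of the controls and in at least 8 of 16 alternatives.

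Targets led by interferon gamma were called in both directions at KO day 4. Against control 4 of 16 tested were called higher, where 11.1% of all genes were, and 2 lower, where 11.5% were. Their median log2 fold change was 0.31. At KO day 3 against control 1 was called higher and none lower, where 0.142% and 0.298% of all genes were. The median was 1.54 and all 16 fold changes were above 0. Between the KO times none was called higher and 5 lower, where 6.52% and 6.03% of all genes were, with a median of -0.51. The chemokine Cxcl10 was at 5.51, 4.45 and 9.17 CPM at KO day 4, at 0, 0.39 and 2.2 at KO day 3 and at 0.0776, 0 and 0.314 in controls (log2 fold change for KO day 4 against control 5.62, SE 1.31, edgeR adjusted p = 0.012). Nos2, the inducible nitric oxide synthase (4.30, edgeR adjusted p = 0.019), the adhesion molecule Icam1 (2.53, edgeR adjusted p = 0.025) and Cxcl9 (5.82, edgeR adjusted p = 0.026) were the others called higher. Cxcl9 had no read in KO day 4 replicate 2 and overlapped the controls. The calls of Nos2, Icam1 and Cxcl9 were each lost without any 1 of the controls, those of Icam1 and Cxcl9 also without KO day 4 replicate 3, that of Icam1 with library size alone (log2 fold change 0.64), that of Cxcl9 without KO day 4 replicate 1, and that of Cxcl10 without control replicate 1.

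Genes of the immunoproteasome and of peptide loading onto MHC class I made up all 5 of the falls between the KO times. Tap1, which moves peptides into the endoplasmic reticulum, was at 6.91, 6.2 and 16.6 CPM at KO day 4, at 24.1, 35.6 and 52.1 at KO day 3 and at 7.83, 8.68 and 8.03 in controls. Its KO day 3 libraries lay above all others (log2 fold change against control 2.19, SE 0.37, edgeR adjusted p = 0.036; between the KO times -1.95, SE 0.38, edgeR adjusted p = 0.011). Psmb8, an immunoproteasome subunit, was at 6.79, 11.4 and 23.7 CPM at KO day 4, at 81.1, 69 and 107 at KO day 3 and at 35.3, 42.3 and 24.4 in controls. Like Ifi47 and Gm12250 it lay above the controls at KO day 3 and below them at KO day 4 (for KO day 4 against control -1.32, edgeR adjusted p = 0.03, and between the KO times -2.65, edgeR adjusted p = 0.0039). The margin at KO day 4 was narrow, with 23.7 CPM in replicate 3 against 24.4 in control replicate 3. The libraries of Psmb10 and B2m lay in the same order as those of Psmb8. Psmb10 fell by 1.26 at KO day 4 against control (edgeR adjusted p = 0.0015) and by 1.66 between the KO times (edgeR adjusted p = 0.0014). B2m, the light chain of MHC class I, fell by 1.04 between the KO times (edgeR adjusted p = 0.0031). The call of Tap1 at KO day 3 was lost without any 1 of the controls and without KO day 3 replicate 2 or replicate 3, and that of Psmb8 at KO day 4 without control replicate 1 or replicate 2 and without KO day 4 replicate 1 or replicate 2. The falls of Tap1, Psmb8, Psmb10 and B2m between the KO times passed the test in all 16 alternatives.

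Targets led by type I interferon had another order. At KO day 4 against control 6 of 22 tested were called higher and none lower, where 11.1% and 11.5% of all genes were. Their median log2 fold change was 0.89. At KO day 3 against control edgeR called none, with 4 at an unadjusted p under 0.05 and 1 called by DESeq2, and the median was 0.38. Irf7, the factor that amplifies type I responses, was at 17, 14.1 and 29.3 CPM at KO day 4, at 2.9, 3.9 and 6.73 at KO day 3 and at 5.23, 2.41 and 3.01 in controls. Its KO day 4 libraries lay above all others (log2 fold change against control 2.49, SE 0.43, edgeR adjusted p = 0.0028; between the KO times 2.13, SE 0.42, edgeR adjusted p = 0.011). Usp18, which removes ISG15 from proteins (3.72, edgeR adjusted p = 0.0086), Zbp1, a sensor of left-handed nucleic acid (3.34, edgeR adjusted p = 0.025), and Oas3, which makes oligoadenylate (3.59, edgeR adjusted p = 0.028), were also called higher at KO day 4 against control. Ifit3 was the other call between the KO times (5.85, SE 1.55, edgeR adjusted p = 0.033), from at most 0.0866 CPM at KO day 3. With library size alone, Irf7, Usp18, Zbp1 and Oas3 were not called at KO day 4 but stayed positive. The calls of Zbp1 and Oas3 were also lost without control replicate 2 or replicate 3 and without KO day 4 replicate 3, that of Oas3 without control replicate 1, and that of Ifit3 without any 1 of the KO day 3 libraries, control replicate 3, or KO day 4 replicate 2 or replicate 3.

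**Figure D4:**
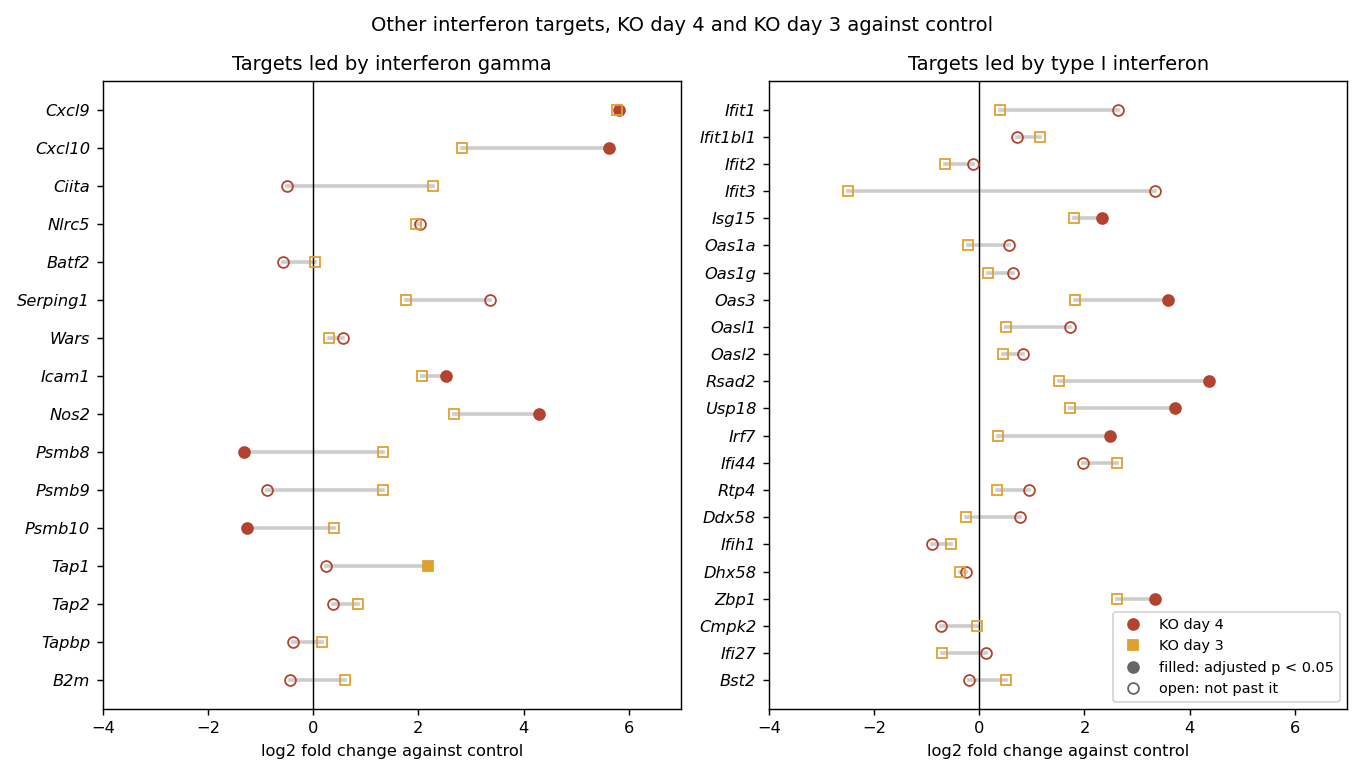
Log2 fold changes against control of 16 targets led by interferon gamma (left) and 22 led by type I interferon (right), for KO day 4 (circles) and KO day 3 (squares); filled symbols had an edgeR adjusted p under 0.05. Psmb8, Psmb9, Psmb10 and Tap1 lie further right at KO day 3, while Cxcl10, Nos2, Irf7 and Usp18 lie further right at KO day 4.

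The ATG8 conjugation genes, whose products help place IRG and GBP proteins on vacuoles, mostly did not pass the test. At KO day 4 against control 1 of 12 was called, where 11.1% of all genes were called higher and 11.5% lower. It was Gabarapl1, an ATG8 protein whose log2 fold change was 1.61 with an SE of 0.33 (edgeR adjusted p = 0.0062). At KO day 3 against control edgeR called 0, with 1 at an unadjusted p under 0.05 and 0 called by DESeq2. Between the KO times Gabarapl1 (1.46, edgeR adjusted p = 0.017) and Atg7, which starts the conjugation (1.2, edgeR adjusted p = 0.013), were called higher. Of all genes, 6.52% were called higher in that comparison. With library size alone the fold changes of both genes turn negative. Between the KO times the call of Atg7 was lost without KO day 3 replicate 2, and that of Gabarapl1 without KO day 3 replicate 2 or KO day 4 replicate 3.

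The genes whose levels were most like the mean standardised level of the members over the 9 libraries were Lgals9 (Pearson r = 0.962), Tap1 (0.943), Tgtp1 (0.940) and Ccnd1 (0.936). Creld2, Armc6, Dnaja1, Dazap2 and Snd1 were also among the most alike, at 0.920 to 0.898. The points share group and depth, so these values describe the libraries. Lgals9, which encodes galectin 9, was at 308, 321 and 364 CPM at KO day 4, at 369, 432 and 521 at KO day 3 and at 258, 299 and 296 in controls.

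Markers of other cells moved with the groups as well. Mast cell markers, of which 13 of 14 had counts and Cma2 had 0, summed to 510, 944 and 1433 CPM of nuclear counts at KO day 4, to 216, 25.1 and 68.6 at KO day 3 and to 0.452, 0.787 and 0.1 in controls. They were highest at KO day 4, as was the share of GBPs among the members' counts. Within KO day 4 that share was 16.5%, 15.3% and 14.1% in replicates 1 to 3. Its Wilson intervals overlapped (13.2% to 20.3%, 11.6% to 20% and 11.2% to 17.7%), so no order of these libraries is read from it. The GBPs summed to 12.1, 10.3 and 19.6 CPM of nuclear counts there, highest in replicate 3, as were the markers. At KO day 3 the share (2.25%) and the GBP sum (7.34) were lowest in replicate 1, where the markers were highest. Within KO day 4 the mast cell markers were highest in replicate 3, as were 9 of 10 members, and within KO day 3 in replicate 1, where no member was highest. Macrophage and dendritic cell markers (13 of 15 with counts, Xcr1 and Clec9a at 0) summed to 30.4 to 79.9 at KO day 4, 24.8 to 35.1 at KO day 3 and 13 to 25.8 in controls, and in KO day 4 they too were highest in replicate 3. Lymphocyte and NK cell markers (14 of 19 with counts) summed to 26.2 to 70.3 at KO day 4, 2.35 to 14.2 at KO day 3 and 2.18 to 5.01 in controls. Nearly all of these at KO day 4 were Gzmb, with 134, 222 and 219 counts, while Cd4, Cd8b1, Nkg7, Ncr1 and Prf1 had 0 counts in all libraries. Endothelial markers (6 of 9 with counts; Cdh5, Cldn5 and Emcn at 0) summed to 18.9 to 58.4, 19.5 to 24.3 and 21.5 to 27, and stromal markers (8 of 10 with counts; Pdgfra and Myh11 at 0) to 2.15 to 6.06, 4.11 to 5.97 and 1.86 to 5.34, for KO day 4, KO day 3 and control. The part of these cells and of the mitochondrial share in the members' levels was not tested.

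**Figure D5:**
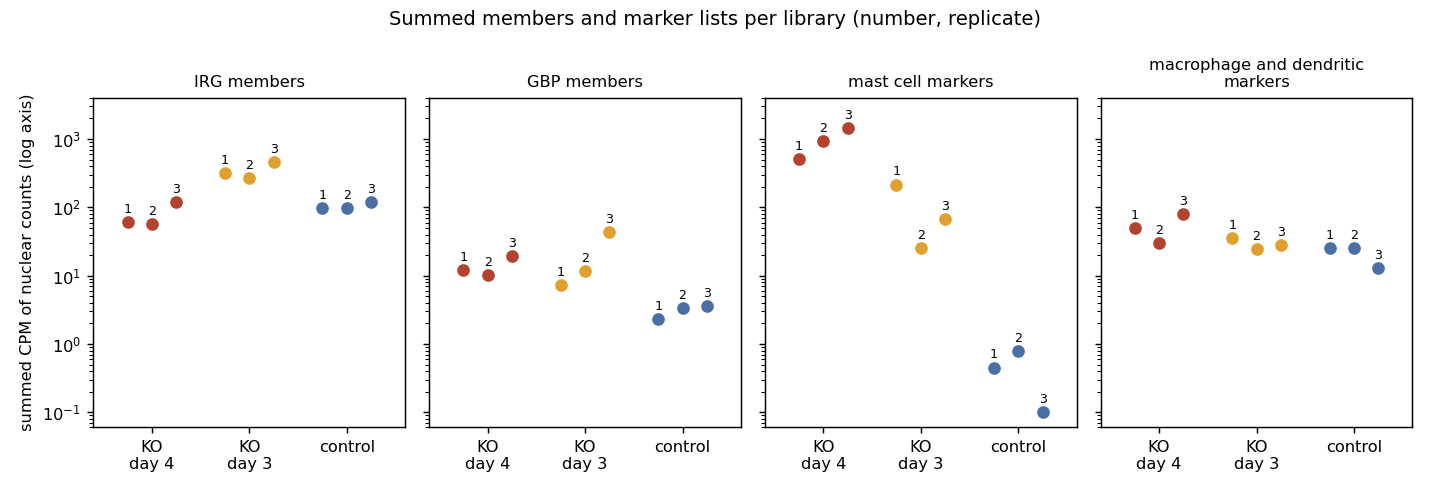
Summed CPM of nuclear counts on a log axis for the IRG members, the GBP members, mast cell markers and macrophage and dendritic cell markers in each library (points, labelled by replicate number). The IRGs peak at KO day 3, in replicate 3, and mast cell markers at KO day 4, in replicate 3.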

How the data were processed

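The deposited values are read counts of Ensembl genes, not normalized, in 9 libraries made from mRNA. The submitters' processing notes name HISAT2 2.0.4 and GRCm38; what counted the reads, on which strand and with which annotation is not given in the sources used here. Of 57180 identifiers, 51933 were named through GENCODE M21, and 6 empty columns were dropped. Samples were grouped by title. Libraries of a group differed by more than sampling noise (chi-square over its degrees of freedom 12.8 to 89.2) and count as 1 replicate each. Counts were fitted with edgeR 4.0.16 in R 4.3.3 (filterByExpr with minimum counts of 10 per library and 15 in total, TMM scaling, quasi-likelihood test, 9 libraries in 1 fit, Benjamini-Hochberg over 13405 genes, threshold 0.05), tested on simulated data. TMM factors were 0.40 to 0.50 at KO day 4, 1.22 to 1.40 at KO day 3 and 1.44 to 1.83 in controls. Alternatives were RLE factors, library size alone, nuclear genes only, no filter, DESeq2 1.42.0, a replicate block, and leaving out each library or both that stood apart. Named genes were all genes of the families, up to 4 with the smallest adjusted p of each further list among those called, Irf1, Cxcl9, Psmb8 against control and the epithelial markers picked after their values were seen, and the genes most alike; a gene that meets the rule is not reported here. The members and lists were chosen with earlier results of these data known.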

Additional observations from a re-analysis of the deposited data

Results flagged for a closer look

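The edgeR test of KO day 4 against KO day 3 called 874 genes higher and 808 lower. From the other IRG and GBP genes and the interferon lists, 9 of them are given here. For these the effect against the shared controls differed between KO day 4 and KO day 3. Lower at KO day 4 were Gm12250 (log2 fold change -4.10), Psmb8 (-2.65), Psmb9 (-2.20), Tap1 (-1.95), Psmb10 (-1.66) and B2m (-1.04). Higher at KO day 4 were Ifit3 (5.85), Irf7 (2.13) and Jak1 (0.77). Ifi47 had all KO day 4 libraries below the controls and all KO day 3 libraries above them (log2 fold change between the KO times -2.96); the edgeR fit called this difference, but Ifi47 was chosen by its levels in these libraries, so nothing is read from the call.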

How the results depend on the processing

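Library size alone takes the median fold change over all genes, in log2 units, to -1.95 at KO day 4 and -0.39 at KO day 3, each against control, and to -1.54 between the KO times. No member called by the reported fit changed direction in the comparison of its call, and of the members' fold changes over the alternatives 449 moved by less than the spread between libraries and 31 by more. Depth limits the GBPs most, with 31 to 68 counts in controls and KO day 4 libraries. Where 3 counts are given below, they stand for KO day 4 against control, then KO day 3 against control, then the comparison of the KO times. Each count takes genes called higher and lower together. A larger count with library size alone therefore need not mean more calls in the reported direction.

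Called genes numbered 3021, 59 and 1682 by the reported fit, 11057, 518 and 9508 with library size alone, and 876 (KO day 3 against control) and 2879 (KO day 4 against KO day 3) by DESeq2. Without a filter 317 were called at KO day 3 against control, and 646 without both libraries that stood apart. Called members at KO day 3 against control numbered 3, against 5 with library size alone, 7 without a filter, and 8 by DESeq2 and without both libraries that stood apart. Of the other IRG and GBP genes, 0, 1 and 1 were called (2 at an unadjusted p under 0.05 at KO day 4), against 2, 2 and 3 with library size alone, 4, 2 and 2 without a filter, 2, 2 and 2 by DESeq2, 1, 2 and 2 without both libraries that stood apart, and 1 at KO day 4 with nuclear genes only. Of receptor and signalling genes, 1, 1 and 2 were called, against 4, 3 and 4 by DESeq2, 3, 2 and 1 without both libraries that stood apart, 15 and 12 at KO day 4 against control and KO day 3 with library size alone, and 3 at KO day 3 without a filter. Of targets led by interferon gamma, 6, 1 and 5 were called, against 13 and 9 at KO day 4 against control and KO day 3 with library size alone, 3 and 8 at KO day 3 against control and between the KO times without a filter, 5 at KO day 3 by DESeq2, and 10 and 6 at KO day 4 and KO day 3 against control without both libraries that stood apart. Of targets led by type I interferon, 6, 0 and 2 were called, against 10, 1 and 4 by DESeq2, and 1 each at KO day 3 against control and between the KO times without both libraries that stood apart. With library size alone 8 were called at KO day 4 against control and 6 between the KO times. None of the 6 reported calls at KO day 4 against control was among those 8. With RLE factors each count stayed within 1.5 times. The cause of these moves was not tested.

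With replicate numbers as a block, edgeR called 9 genes at KO day 3 against control (2057 at an unadjusted p under 0.05), with 0 members, 0 receptor genes and 0 targets led by interferon gamma; all 10 members kept an unadjusted p under 0.05. The block also gave 1 other IRG or GBP gene at KO day 4 against control and 2 between the KO times, and 1 target led by type I interferon between the KO times. Deviations of same-numbered libraries correlated at -0.054 to 0.132 over all tested genes. Such a correlation cannot tell whether same-numbered libraries shared an effect on only some genes.

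Leaving out 1 library at a time gave 1588 to 3839, 0 to 345 and 648 to 1802 called genes. Members called ranged over 1 to 4, 0 to 6 and 2 to 6, other IRG and GBP genes over 0 to 2, 0 to 2 and 1 to 2, and receptor genes over 0 to 2, 0 to 3 and 0 to 2. Targets led by interferon gamma ranged over 2 to 8, 0 to 4 and 4 to 6, and those led by type I interferon over 2 to 8, 0 to 0 and 1 to 2. At KO day 3 against control 0 genes were called by edgeR in the lowest case, with at least 1333 at an unadjusted p under 0.05 in every case.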
